A study of Mus musculus with 6 samples.

Results

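Acute phase proteins are plasma proteins whose output by the liver changes with inflammation, and 10 of their genes were followed here in mouse liver tumours: the serum amyloid A genes Saa1, Saa2, Saa3 and Saa4, the orosomucoid genes Orm1, Orm2 and Orm3, the lipocalin gene Lcn2, the haptoglobin gene Hp and the haemopexin gene Hpx. They were taken by gene symbol from the 12393 genes named on the array, with every probe set that had one of these symbols alone, which gave 12 probe sets among 22626. Levels are log2 expression values made by the robust multi-array average (RMA), on which 1 unit is a doubling. Each of 6 arrays held RNA from a liver tumour of 1 male mouse. The Alb/AEG-1 group of 3 mice carried a transgene for AEG-1, an oncoprotein encoded in the mouse by Mtdh, and the wild-type group of 3 mice carried none. Alb stands for albumin, whose regulatory sequences are active in hepatocytes, and the labels do not say whether the mice descend from 1 founder. Both groups had been given the liver carcinogen DEN (N-nitrosodiethylamine) in 1 intraperitoneal injection of 10 µg per g when 14 days old, and their tumours were taken at 28 weeks. The labels give CD-1 as the background strain, and the injected embryos came from B6CBAF1/J matings. No untreated or tumour-free liver was analysed here, so the levels have no normal baseline.

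In the acute phase response, cytokines of the interleukin-6 and interleukin-1 families act on hepatocytes through the transcription factors STAT3, C/EBP beta, C/EBP delta and NF-kappaB. The amyloids Saa1 and Saa2 travel on high-density lipoprotein and are strongly induced, Saa3 is induced in macrophages and fat as well as liver in the mouse, and Saa4 is the constitutive amyloid of lipoprotein particles. Orosomucoids are acid glycoproteins that carry drugs and steroids, lipocalin 2 withholds iron by binding bacterial siderophores, haptoglobin captures free haemoglobin and haemopexin captures free haem. Of these, all but Saa4 were classed as inducible.

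The differences of the inducible members ranged widely in size and lay on both sides of 0, and that of the constitutive amyloid was negative. The Lcn2 level was 2.33 ± 0.46 log2 (SE) higher in Alb/AEG-1 tumours, which is 5.03-fold against wild-type values that all lay below the median probe set, so that the size of the fold is uncertain. The levels of Saa1 and Saa2 were 1.10 ± 0.33 and 0.84 ± 0.27 higher. Orm2 differed by 0.58 ± 0.20, Saa3, Orm1, Hp and Hpx by 0.07 to 0.21, Orm3 by -0.47 ± 0.28 and Saa4 by -0.41 ± 0.10. With limma p-values adjusted over every probe set by Benjamini-Hochberg, 0 of the 12 member probe sets passed an adjusted p of 0.05 (0.00442% of all probe sets did), and the members' adjusted p lay between 0.596 and 0.825. At an unadjusted p under 0.05 there were 6 of 12, against 8.06% of all probe sets. Of these, 5 were higher in Alb/AEG-1 tumours (3.68% of all probe sets) and 1 was lower (4.38%). The 6 were both Saa1 probe sets, Saa2, Lcn2, Orm2 and 1 of the 2 Saa4 probe sets. The Saa1 and Saa2 probe sets may read the same transcripts, as described with their values, so these are not 6 separate results. Among gene differences, 8 of the 10 were positive, against 47.8% of all genes.

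The promoters of the members are shown first, because C/EBP sites are the shared input that textbook accounts give to this family. RefSeq promoter windows of the build GRCm38.p6, each with 250 bases before and 50 after a start of transcription, were at hand for 8 of the 10 genes (Hp and Orm1 had none in the table). The letters TTGCNNAA, a common core of C/EBP sites, were searched on both strands, so that TTNNGCAA also counted. A match lay in all 8 windows, against 10.8% of the 32851 windows in the table. The windows of Saa1 and Saa2 are closely alike, as are those of Orm2 and Orm3 (identities below), so these are not 8 separate cases. The inducible and the constitutive genes were alike in this. The capitals mark the matches in stretches of 30 bases from the inducible genes, written 5′ to 3′ along the gene.
Saa1: ctgtgctcccaTTGCACAAtgagggagaat
Saa3: ggtaagtgggaTTATGCAAgatcaaacagg
Orm2: gagagaacattTTGCGCAAgacatttccca
Orm3: gagggaacattTTGCACAAgacatttatca
Hpx: tggctggaaatTTGCTGAAgggggtagggg
These stretches lie at chr7:46743144-46743173 on the minus strand for Saa1, chr7:46715757-46715786 on the minus strand for Saa3, chr4:63362318-63362347 on the plus strand for Orm2, chr4:63356026-63356055 on the plus strand for Orm3 and chr7:105600298-105600327 on the minus strand for Hpx. The Orm2 match reads the same on both strands. It starts at position -120 from the start of transcription, and the Orm3 match starts at -121. The windows of Saa1, Saa3 and Orm3 are set on a start inside the outermost RefSeq bounds of the gene, so other starts exist for them. These windows of Orm2 and Orm3 were 86.6% identical over their global alignment.

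The whole 250 bases before the start are given for the member with the largest difference (Lcn2), for an inducible amyloid (Saa2) and for the constitutive amyloid (Saa4), with the same capitals.
Lcn2: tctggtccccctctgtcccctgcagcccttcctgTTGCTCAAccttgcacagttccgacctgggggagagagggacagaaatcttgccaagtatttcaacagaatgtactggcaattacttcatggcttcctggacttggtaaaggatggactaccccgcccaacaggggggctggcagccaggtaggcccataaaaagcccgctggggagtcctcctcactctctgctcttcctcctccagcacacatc
Saa2: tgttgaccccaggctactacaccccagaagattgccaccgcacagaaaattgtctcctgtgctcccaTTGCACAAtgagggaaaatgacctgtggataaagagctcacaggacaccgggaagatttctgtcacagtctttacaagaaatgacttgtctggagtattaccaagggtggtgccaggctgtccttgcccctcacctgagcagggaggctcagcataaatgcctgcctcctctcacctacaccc
Saa4: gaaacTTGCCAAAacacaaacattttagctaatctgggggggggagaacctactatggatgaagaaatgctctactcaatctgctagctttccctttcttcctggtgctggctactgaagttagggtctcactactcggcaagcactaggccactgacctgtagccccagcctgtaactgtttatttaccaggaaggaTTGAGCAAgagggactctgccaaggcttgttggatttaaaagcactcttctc
They lie at chr2:32387740-32387989 on the minus strand, chr7:46751583-46751832 on the plus strand and chr7:46732604-46732853 on the minus strand. The matches start at -216 in Lcn2, at -183 in Saa2, and at -245 and -52 in Saa4, which was the member with 2 of them. The Saa1 and Saa2 windows were 95.3% identical (287 identical bases, 12 mismatches and 2 gapped positions), whereas Saa2 and Saa4 were 49.9% identical. All pairs other than Saa1 with Saa2 and Orm2 with Orm3 lay between 47.4% and 55.6%. Letters of a kappaB site (GGG, any 5 bases and CC, on either strand) were in the windows of Lcn2, Saa1, Saa2 and Saa4, 4 of 8 against 50.8% of all windows, and letters of a STAT site, TTCNNNGAA, were in 0 of 8 against 8.3%. No match overlapped another. A match shows letters and not binding, and a window without one says nothing of sites elsewhere.

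**Figure D1:**
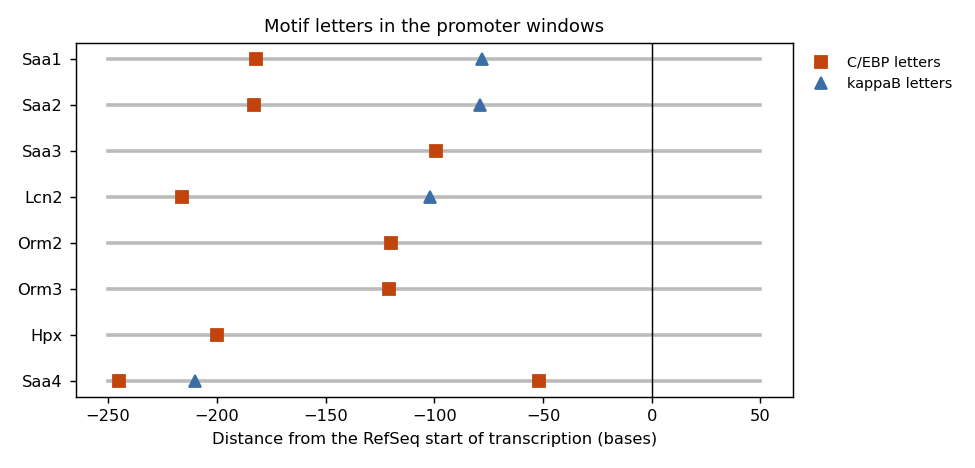
Positions of the first base of each match to the C/EBP letters (squares) and kappaB letters (triangles) in the promoter windows of 8 members, against distance from the RefSeq start of transcription in bases. Each grey bar is 1 window. Every window has a C/EBP match, the matches run from -245 to -52 (both in Saa4), and 4 windows have a kappaB match.

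Along chromosome 7 the amyloid genes lie in the order Saa3, Saa4, Saa1 and Saa2 in the RefSeq gene table, with 1 other listed gene between Saa3 and Saa4, the pseudogene Saa-ps between Saa4 and Saa1, and none between Saa1 and Saa2. The constitutive gene thus sits between inducible ones. On chromosome 4 the order is Orm1, Orm3 and Orm2.

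Lcn2 had the widest gap between the groups. Its probe set was at 6.35, 8.44 and 7.26 log2 in Alb/AEG-1 replicates 1, 2 and 3, against 5.05, 4.75 and 5.27 in wild-type replicates 1, 2 and 3. The groups did not overlap, the wild-type tumours lay close together (SD 0.26), and the Alb/AEG-1 tumours spread widely (SD 1.05) with replicate 2 the highest. The difference was 2.33 ± 0.46 log2 (SE; limma, unadjusted p = 0.00119, adjusted p = 0.596). Over all probe sets, 0.305% differed upwards by 1 log2 or more. Leaving out single arrays gave differences between 1.78 and 2.83, the smallest without Alb/AEG-1 replicate 2. All 3 wild-type values lay below 5.83, the median of probe set means, and no detection call was used here. In bulk tumour RNA, more cells of a type and more RNA per cell cannot be told apart.

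Lcn2 is also made by neutrophils, so markers of that cell type stand beside it. Of 13 measured neutrophil markers, 6 had a positive and 7 a negative difference, with a median of -0.03 (-0.01 over all genes), and 3 had an unadjusted p under 0.05, all lower (8.33% of all genes were under it). Their mean level per array ran between 4.72 and 4.87 in Alb/AEG-1 and between 4.54 and 4.92 in wild-type tumours. Mpo, the granule peroxidase, was at 3.42, 3.71 and 3.53 in Alb/AEG-1 against 3.91, 3.92 and 3.89 in wild-type tumours, and Ltf, the granule lactoferrin, differed by -0.26 ± 0.10. Csf3r, the receptor for granulocyte colony-stimulating factor, differed by -0.28 ± 0.11 and Mmp8, neutrophil collagenase, by -0.27 ± 0.13. The alarmin gene S100a8 was at 6.40, 4.99 and 4.68 in Alb/AEG-1 replicates 1, 2 and 3 against 3.78, 4.80 and 5.91 in wild-type tumours, a difference of 0.53 ± 0.60 with overlapping groups. Its partner S100a9 differed by 0.36 ± 0.44, and the lysozyme gene Lyz2, which macrophages also express, had the most positive difference of the list, 0.71 (limma, unadjusted p = 0.133). The part of these cells in the Lcn2 level was not tested.

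Saa1, measured by 2 probe sets, separated the groups in both. RefSeq gives to Saa1 the transcript on which 1450788_at was designed, and whether it also reads Saa2 was not tested. It was at 10.34, 11.23 and 9.70 log2 in Alb/AEG-1 replicates 1, 2 and 3 against 9.26, 9.33 and 9.39 in wild-type tumours. The wild-type values were nearly equal (SD 0.07), and those of Alb/AEG-1 tumours were not (SD 0.76), with replicate 2 the highest and replicate 3 the lowest, 0.38 above the wild-type mean. The difference was 1.10 ± 0.33 log2, or 2.14-fold (limma, unadjusted p = 0.0116, adjusted p = 0.596), and it was 0.70 without Alb/AEG-1 replicate 2. The other, 1419075_s_at, was at 9.70, 10.58 and 9.32 in Alb/AEG-1 against 8.67, 8.69 and 9.05 in wild-type tumours, a difference of 1.06 ± 0.30 (0.70 without Alb/AEG-1 replicate 2). The platform annotation names it Saa1, while RefSeq gives the transcript it was designed on to Saa2, and its type (s_at) marks probes that several transcripts share. Each of these 2 genes also carries the other's symbol as a synonym in RefSeq.

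Saa2 was read by 1 probe set of the type x_at, which may bind related transcripts. It was at 7.87, 8.90 and 7.94 log2 in Alb/AEG-1 tumours against 7.23, 7.29 and 7.68 in wild-type tumours, without overlap. Alb/AEG-1 replicate 2 again stood above the rest, and the difference of 0.84 ± 0.27 (limma, unadjusted p = 0.0166, adjusted p = 0.601) was 0.51 without it. Without wild-type replicate 2 its unadjusted p was 0.0507 by limma. Signal from Saa1 and from Saa2 cannot be told apart on the s_at and x_at probe sets, so the 3 differences, between 0.84 and 1.10, are not separate readings of 2 genes.

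Saa3, the amyloid that mouse macrophages also make, did not separate the groups. Its level was 7.19, 6.64 and 7.21 log2 in Alb/AEG-1 tumours and 6.25, 6.97 and 7.22 in wild-type tumours. The array that was highest for Saa1, Saa2 and Lcn2, Alb/AEG-1 replicate 2, was the lowest of its group for Saa3. The difference was 0.20 ± 0.26 log2 (limma, adjusted p = 0.825) and turned to -0.081 without wild-type replicate 1. Beside it, all 16 measured macrophage markers had a positive difference, with a median of 0.42 (Lyz2 and Itgam are also in the neutrophil list). Their mean level per array ran between 7.12 and 7.75 in Alb/AEG-1 and between 6.77 and 7.16 in wild-type tumours, and 6 of them had an unadjusted p under 0.05. Over all genes 47.8% of differences were positive and 8.33% had such a p. The mean difference of the list was 0.11 among the mice with low animal numbers and 0.91 among those with high ones. The complement subunit C1qb differed by 0.76 ± 0.21, Mpeg1, which forms pores in engulfed bacteria, by 0.90 ± 0.25, the actin-binding Aif1 by 0.55 ± 0.15 and the secreted Cd5l by 0.54 ± 0.17. The part of these cells in the amyloid levels was not tested.

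Saa4, the constitutive amyloid, was lower in each Alb/AEG-1 tumour than in each wild-type tumour by its brighter probe set, 1419318_at. That was at 11.46, 11.38 and 11.42 log2 in Alb/AEG-1 tumours, an SD of 0.04, against 11.66, 11.88 and 11.95 in wild-type tumours. The difference was -0.41 ± 0.10 log2, or 1.33-fold lower (limma, unadjusted p = 0.00352, adjusted p = 0.596), with -0.50 to -0.35 as single arrays were left out. The dimmer probe set, 1419319_at, overlapped, at 9.11, 8.74 and 9.36 in Alb/AEG-1 against 9.41, 9.21 and 9.32 in wild-type tumours, a difference of -0.24 ± 0.16 (limma, adjusted p = 0.678). It was -0.077 without Alb/AEG-1 replicate 2 and -0.39 without Alb/AEG-1 replicate 3 (limma, unadjusted p = 0.027). Both probe sets were designed on the same Saa4 transcript, and in both the lowest Alb/AEG-1 array was replicate 2.

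**Figure D2:**
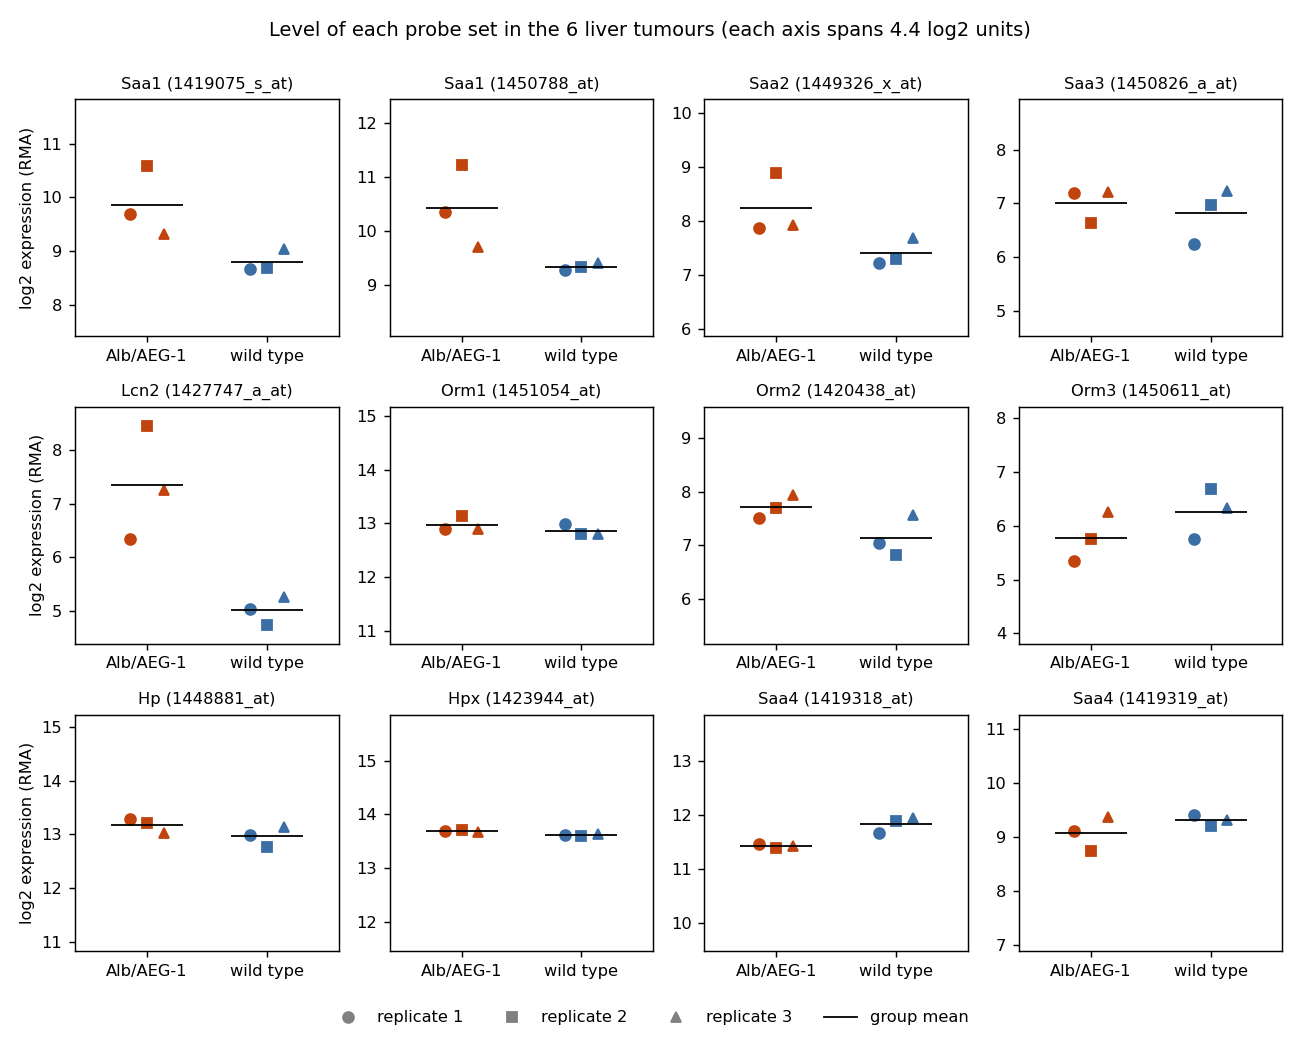
Log2 expression (RMA) of each of the 12 member probe sets, with Alb/AEG-1 tumours left and wild-type tumours right. Symbols give the replicate number, lines the group means, and all panels span the same number of log2 units. Lcn2, Saa1 and Saa2 separate the groups upwards with Alb/AEG-1 replicate 2 highest, Saa4 (1419318_at) separates them downwards, and Orm1, Hp and Hpx are nearly flat.

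The 3 orosomucoid genes pointed in different directions. Orm2 was at 7.52, 7.70 and 7.93 log2 in Alb/AEG-1 tumours against 7.05, 6.82 and 7.56 in wild-type tumours. Wild-type replicate 3 was a little above the lowest Alb/AEG-1 value, so the groups touched, and the difference was 0.58 ± 0.20 (limma, unadjusted p = 0.0198, adjusted p = 0.602). The unadjusted p of Orm2 was over 0.05 without Alb/AEG-1 replicate 3 (0.0684), wild-type replicate 1 (0.0554) or wild-type replicate 2 (0.0663), each by limma. Here Alb/AEG-1 replicate 3 and not replicate 2 was the highest. Orm3 was at 5.34, 5.75 and 6.25 in Alb/AEG-1 against 5.75, 6.68 and 6.32 in wild-type tumours, a difference of -0.47 ± 0.28 (limma, adjusted p = 0.662) with overlapping groups. The Orm3 difference moved with single arrays. Omitting Alb/AEG-1 replicate 1 gave -0.25 and omitting replicate 3 gave -0.71, while omitting wild-type replicate 1 gave -0.72 (limma, unadjusted p = 0.0284) and omitting replicate 2 gave -0.26. A term for the run of animal numbers gave -0.23. Orm1 was at 12.90, 13.13 and 12.89 in Alb/AEG-1 against 12.99, 12.79 and 12.80 in wild-type tumours, a difference of 0.11 ± 0.10 (0.03 to 0.18 as single arrays were left out, lowest without Alb/AEG-1 replicate 2 and highest without wild-type replicate 1). Orm2 and Orm3, whose promoter stretches above carry the C/EBP letters at nearly the same place, thus had differences of opposite sign, neither past the threshold.

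The haemoglobin and haem carriers had small differences. Hp was at 13.28, 13.22 and 13.02 log2 in Alb/AEG-1 against 12.98, 12.77 and 13.14 in wild-type tumours, with overlap and a difference of 0.21 ± 0.12 (0.11 without wild-type replicate 2). Hpx was at 13.70, 13.71 and 13.67 in Alb/AEG-1 against 13.61, 13.60 and 13.65 in wild-type tumours. The Hpx groups did not overlap, but by a difference of only 0.07 ± 0.07 log2 (limma, adjusted p = 0.775). Orm1, Hp and Hpx all lay near the top of a scale whose highest value was 14.86.

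**Figure D3:**
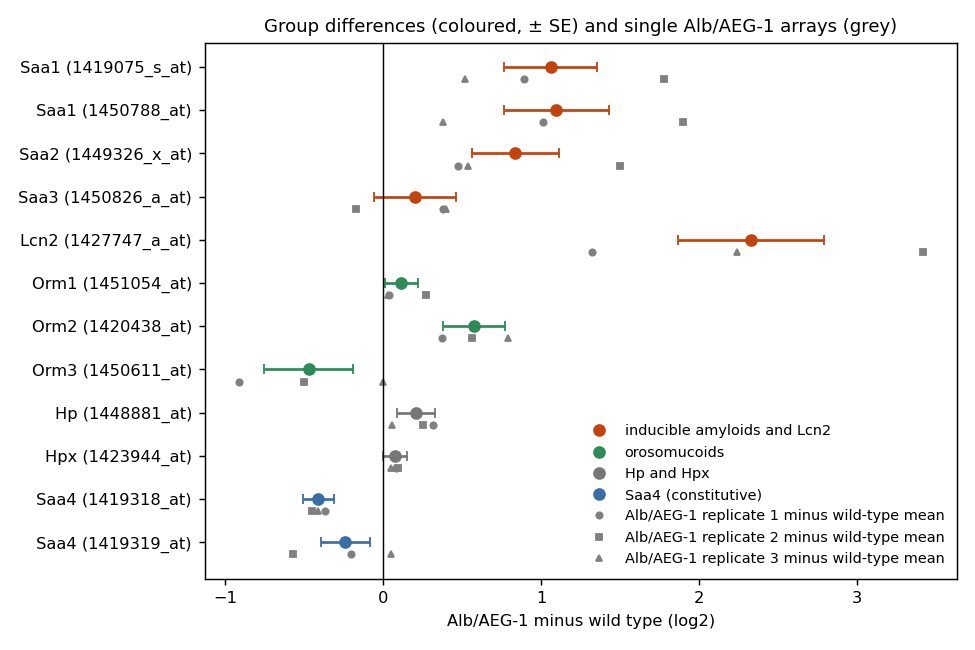
Difference in log2 level (Alb/AEG-1 minus wild type) of the 12 member probe sets, as coloured points with bars of 1 SE, and the 3 single Alb/AEG-1 arrays minus the wild-type mean as grey symbols below each. Lcn2 is at 2.33, Saa1 and Saa2 between 0.84 and 1.10, Orm1, Hp and Hpx near 0, and the 2 Saa4 probe sets at -0.41 and -0.24.

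Taking 1 probe set per gene, the 9 inducible members had a median difference of 0.21 log2, with 8 positive and 1 negative, and Saa4 was at -0.41. Over all genes the median was -0.01. The 4 genes Saa1, Saa2, Saa3 and Lcn2 had a median of 0.97, the 3 orosomucoids 0.11 and the pair Hp and Hpx 0.14. Relative to the wild-type mean, Saa1 was 1.02, 1.90 and 0.38 higher in Alb/AEG-1 replicates 1, 2 and 3, while Saa4 was at -0.37, -0.45 and -0.41 by its brighter probe set and at -0.20, -0.57 and 0.05 by the dimmer one. The 3 tumours were close together for Saa4 by the brighter probe set, but not by the dimmer one, where replicate 3 lay above the wild-type mean. In all, 6 of the 12 probe sets had groups that did not overlap, against 14.7% of all probe sets: 5 upwards (6.28%) and 1 downwards (8.38%).

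The numbers in the titles form a low run, of Alb/AEG-1 replicates 1 and 2 with wild-type replicate 1, and a high run, of Alb/AEG-1 replicate 3 with wild-type replicates 2 and 3. The labels do not call these batches. The Lcn2 difference was 2.35 in the low and 2.25 in the high run, and that of Orm2 was 0.56 and 0.74. Saa1 differed by 1.52 and 0.35 (0.93 with the run as a term in limma), and Saa2 by 1.16 and 0.45. Saa4 (1419318_at) differed by -0.24 and -0.50, and its dimmer probe set by -0.48 and 0.10. Each of these within-run values has a single array in 1 group and carries no error. Mtdh itself was at 9.57, 9.40 and 9.15 in Alb/AEG-1 against 9.32, 9.03 and 9.16 in wild-type tumours, with overlap. The labels do not say whether these probes bind the transgene's transcript, so they do not check the genotype.

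The other positive acute phase genes had differences on both sides of 0, and whether they differ from those of Lcn2 and Saa1 was not tested. Among 22 measured positive acute phase genes outside the members, 13 differences were positive and 9 negative, with a median of 0.08, and 1 had an unadjusted p under 0.05 (8.33% of all genes did). That gene was Lrg1, which encodes the secreted leucine-rich alpha-2-glycoprotein 1. It was at 11.11, 11.11 and 10.92 log2 in Alb/AEG-1 against 10.61, 10.50 and 10.43 in wild-type tumours, with tight groups and a difference of 0.53 ± 0.09 (limma, unadjusted p = 0.000604, adjusted p = 0.467). Itih3, a heavy chain of inter-alpha-trypsin inhibitors, differed by 0.35 ± 0.15, the fibrinogen chain Fgb by 0.20 ± 0.11 and Hamp, the iron hormone hepcidin, by -0.21 ± 0.11. Apcs, serum amyloid P and a major acute phase protein of the mouse, was at 10.90, 11.87 and 9.75 in Alb/AEG-1 and 11.74, 9.62 and 10.97 in wild-type tumours, spread over more than 2 units within each group and overlapping. Serpina3n, an inducible protease inhibitor, differed by -0.05 ± 0.19. The liver-secreted Fgl1 and the lipopolysaccharide co-receptor Cd14 had differences of 0.47 and 0.44, neither with an unadjusted p under 0.05.

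Of 13 measured negative acute phase genes, whose output falls in inflammation, 6 differences were positive and 7 negative. The fetuin gene Ahsg was at 12.99, 13.05 and 13.10 in Alb/AEG-1 against 12.69, 12.88 and 12.91 in wild-type tumours, a difference of 0.22 ± 0.09 and the 1 with an unadjusted p under 0.05. Kng1 (kininogen) differed by 0.13 ± 0.08, Igf1 by -0.08 ± 0.08 and Serpina6, the carrier of corticosteroids, by -0.48 ± 0.56. Markers of hepatocytes were at mean levels between 12.98 and 13.22 in Alb/AEG-1 and between 13.11 and 13.25 in wild-type tumours, as liver tissue would have, and 0 of 16 had an unadjusted p under 0.05. Among them Tdo2 differed by 0.15 ± 0.10, Arg1 by 0.11 ± 0.08, Cps1 by -0.11 ± 0.08 and Pck1 by -0.46 ± 0.41.

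Genes of the inducing signals, taken as a whole list, showed no common direction. Of 24 measured genes of interleukin-6 and interleukin-1 signalling, 10 differences were positive and 14 negative, with a median of -0.05. The cytokine genes Il6, Il1a, Il1b, Tnf and Lif were among the negative ones, at -0.40 to -0.08, none with an unadjusted p under 0.05. Il6 was near the bottom of the scale, at 2.85, 2.80 and 2.66 in Alb/AEG-1 and 2.85, 3.06 and 2.91 in wild-type tumours. The receptor chain Il6ra differed by -0.49 ± 0.22, the interleukin-1 co-receptor Il1rap by -0.22 ± 0.10, the receptor Lifr by -0.26 ± 0.14, and the STAT3 inhibitor Pias3 by 0.29 ± 0.11, the 1 with an unadjusted p under 0.05. Socs3, a feedback inhibitor that STAT3 induces, spread widely, at 8.26, 5.95 and 7.31 in Alb/AEG-1 replicates 1, 2 and 3 against 8.73, 7.71 and 6.14 in wild-type tumours. The Socs3 difference was -0.35 ± 0.74. Its lowest value of all 6 was in the Alb/AEG-1 tumour with the highest Saa1 and Lcn2, and the next lowest, 6.14, was in a wild-type tumour. Whether the Socs3 level goes with either gene was not tested.

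Of 16 measured transcription factors of acute phase promoters, 7 differences were positive and 9 negative, and 0 had an unadjusted p under 0.05. Cebpb was at 10.35, 9.51 and 10.65 in Alb/AEG-1 replicates 1, 2 and 3 against 9.49, 11.28 and 10.77 in wild-type tumours, and Cebpd at 6.55, 5.63 and 6.55 in Alb/AEG-1 against 6.01, 6.69 and 6.55 in wild-type tumours. Both were lowest within the Alb/AEG-1 group in replicate 2, the array with the highest Saa1. Cebpb was about as low in wild-type replicate 1 (9.49), where Saa1 (1450788_at) was at 9.26. Whether the levels of these factors go with Saa1 was not tested. Nfkb2 differed by -0.18 ± 0.12, Rela by 0.09 ± 0.12, Relb by -0.10 ± 0.14 and Stat3 by 0.05 ± 0.11. These are transcript levels, and the activity of these factors is also set on the protein.

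Among 15 measured genes for receptors and handling of these proteins and their cargo, 8 differences were positive and 7 negative. Cd36, a scavenger receptor reported to bind amyloid A, was at 7.34, 7.06 and 7.64 in Alb/AEG-1 against 6.48, 6.21 and 6.95 in wild-type tumours, a difference of 0.80 ± 0.21 without overlap. Blvrb, a biliverdin reductase of haem breakdown, differed by 0.32 ± 0.10. The lipocalin 2 receptor Slc22a17 differed by -0.19 ± 0.10 and the transferrin receptor Tfrc by 0.51 ± 0.29, with overlap in both. Of 9 measured markers of bile duct cells, 4 were positive and 5 negative. Prom1, a progenitor surface marker, was at 4.55, 6.71 and 5.86 in Alb/AEG-1 against 4.01, 4.35 and 4.14 in wild-type tumours (limma, adjusted p = 0.596). This is the order of the arrays seen for Lcn2 within the Alb/AEG-1 group. The wild-type values of Prom1 all lay below 5.83, the median of probe set means, so the size of its difference is uncertain. The keratin Krt19 differed by -0.03 ± 0.10, Cldn4 by -0.22 ± 0.11, Cftr by 0.10 ± 0.10 and Sox9 by 0.37 ± 0.38. Within the Alb/AEG-1 group Cftr had the order of Lcn2 too, but at 2.86, 3.05 and 2.93, near the bottom of the scale. Krt19, Cldn4 and Sox9 had other orders. An order of only 3 arrays is easily shared. Mean levels of the bile duct list ran between 4.90 and 4.96 in Alb/AEG-1 and between 4.65 and 4.86 in wild-type tumours. Prom1 differed by 1.54 and the other genes of the list by -0.23 to 0.37, so the gap between these means rests largely on Prom1. The part of bile duct cells in the Lcn2 level was not tested.

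**Figure D4:**
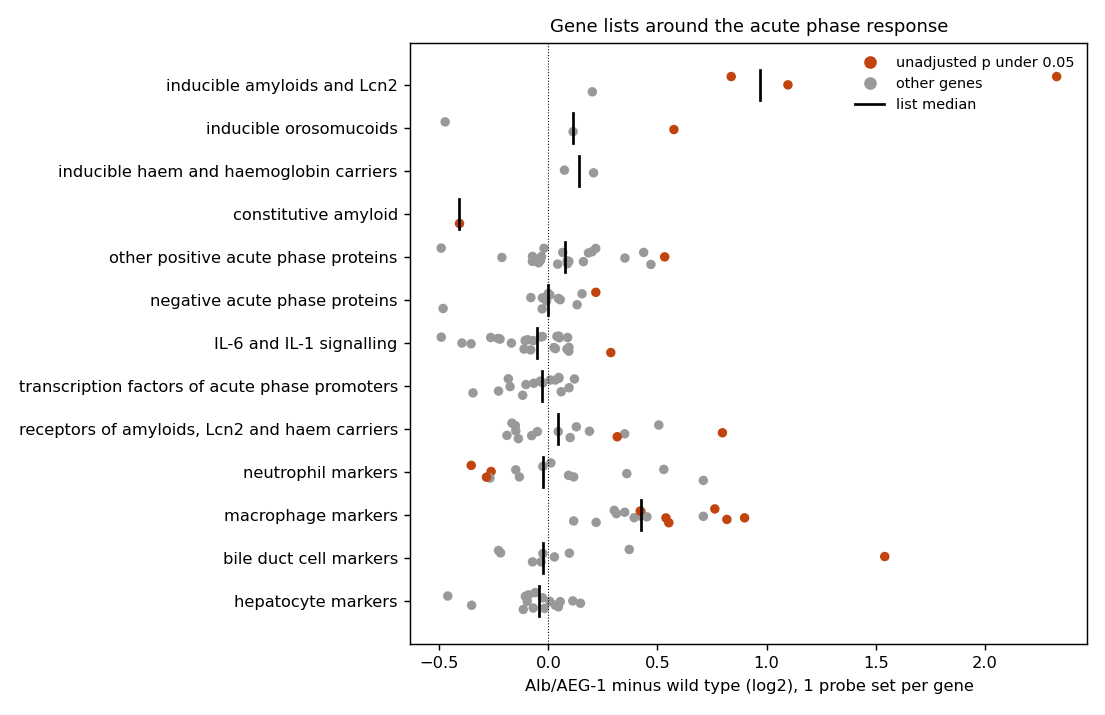
Difference in log2 level (Alb/AEG-1 minus wild type) of every measured gene in the 13 lists used here, 1 probe set per gene, with rust red for an unadjusted p under 0.05 and a bar at each list's median. The inducible amyloids and Lcn2 have a median of 0.97 and the macrophage markers 0.42, and the other lists of more than 10 genes lie between -0.05 and 0.08.

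Patterns over the 6 arrays were compared by Pearson's r among 7014 genes with a mean above that of the median probe set, as a description in which the group difference itself enters. The genes most like Lcn2 were Slc48a1, a haem transporter (r = 0.992), Akr1c18, a hydroxysteroid dehydrogenase (0.984), Tceal8 (0.984), Aebp1 (0.983) and the interferon gamma receptor chain Ifngr1 (0.981). Akr1c18 was at 6.85, 8.29 and 7.36 in Alb/AEG-1 against 5.26, 5.55 and 5.51 in wild-type tumours. For Saa1 they were Rbbp7 (0.991), Wfdc15b (0.979), Metap1 (0.979), Vps29 (0.978) and Stmn1 (0.975). Wfdc15b, a gene of the whey acidic protein family, was at 6.77, 8.32 and 5.42 in Alb/AEG-1 against 5.41, 5.42 and 5.17 in wild-type tumours. Among members, r with Lcn2 was 0.944 for Saa2, 0.871 for Saa1, 0.865 for Hpx, 0.784 for Orm2, 0.707 for Orm1, 0.585 for Hp, 0.051 for Saa3, -0.395 for Orm3 and -0.846 for Saa4. From the highest r down, Saa2 ranked 37, Saa1 140, Hpx 157, Orm2 314, Orm1 553 and Hp 1017 among the 7014 genes. Saa3 ranked 3631, Orm3 5511 and Saa4 6908. Many genes outside the members thus had an r with Lcn2 as high as these.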

How the data were processed

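Total RNA of 6 liver tumours was labelled with biotin and hybridized by the Affymetrix protocol, as the labels state. RMA is the tool in the submitters' processing notes, with no version. It corrects background, normalizes by quantiles and summarizes probes, and the range of the values deposited by the authors is that of log2 levels. The table held 22690 probe sets, of which 64 controls were left out. Symbols came from the platform annotation, updated by gene ID through a RefSeq table of GRCm38.p6. Of the tested probe sets 20380 had 1 symbol, 691 several and 1555 none. The genome build of the arrays is not given in the sources used here.

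The contrast of Alb/AEG-1 minus wild type was fitted over all probe sets with limma 3.58.1 in R 4.3.3 (lmFit, eBayes, 2-sided, 7.53 total degrees of freedom) and adjusted by Benjamini-Hochberg. The fit was tested on simulated data. Where a gene had several probe sets, the one of highest mean over the 6 arrays stood for it. With 3 arrays against 3, an exact permutation test of a single value cannot go below p = 0.1, so none is given. Replicates were numbered in accession order, and each title holds a different animal number. Nothing in the labels says how the tumours were sampled within a mouse, so p-values measure only the spread between these samples. The number of arrays limits the precision. Array medians differed by at most 0.0289 log2, and array pairs correlated at r = 0.987 to 0.993 over probe sets, which are not independent.

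The members, lists and motifs were chosen with earlier results of these data known. Beside the members, genes were named by a rule: from each list the 4 with the smallest unadjusted p, and the 5 most like Lcn2 and Saa1. Mtdh, S100a8, S100a9, Lyz2, Fgl1, Cd14, Il6, Socs3, Cebpd, Stat3, Apcs, Serpina3n and Krt19 were named after their values were seen, for what they encode. So were Il1a, Il1b, Tnf and Lif. The tried alternatives were a variance trend, robust variances, a second quantile normalization, centring on array medians, weights per array, a term for the run of animal numbers, omission of dim or of x_at and s_at probe sets, averaging the probe sets of a gene, and omission of each array in turn.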

Additional observations from a re-analysis of the deposited data

How the results depend on the processing

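Over 14 alternatives, 165 of 166 differences of single member probe sets kept their direction and stayed short of the adjusted threshold, and the lowest adjusted p of any was 0.192 (limma, Lcn2 without Alb/AEG-1 replicate 1). The exception was Saa3, at 0.20, which ran between -0.081 (without wild-type replicate 1) and 0.41 as single arrays were left out. Direction could not change in some of these alternatives. The variance trend, robust variances and the omission of dim or of x_at and s_at probe sets leave each remaining difference as it was. They bear only on the p-values. The count of members past an adjusted p of 0.05 was 0 in all 14 alternatives. At an unadjusted p under 0.05 it was 6, and between 4 and 7 with single arrays left out. It was 4 with the x_at and s_at probe sets left out, which removes 2 of the 12 member probe sets. The median difference of the member probe sets, 0.20, was 0.15 to 0.35 with single arrays left out. The median of the inducible members minus Saa4, 0.62, was 0.53 with the mean of all probe sets of a gene, 0.76 with a term for the run of animal numbers and 0.59 to 0.78 with single arrays left out. Of 134 genes in the other lists, 15 had an unadjusted p under 0.05, where 8.33% of all genes did. Macrophage markers made up 6 of the 15. With single arrays left out the count was 9 to 23 (9 without wild-type replicate 2, 23 without wild-type replicate 1). Of the 10 genes most like Lcn2 or Saa1, 4 stayed among them after a further quantile normalization and 8 after median centring. The cause was not tested. No paired analysis was possible because each title holds a different animal number and the labels link no mouse of 1 group to a mouse of the other. Signal close to the lower end (among others Lcn2 and Prom1 in wild type, Il6, Mpo, Ltf and Cftr) limits what can be read from those genes.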
